A study of Caenorhabditis elegans with 16 samples.

Results

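The interaction of *ech-6* RNAi and P-80 supplementation asks of each gene whether its response to P-80 differed upon knockdown of *ech-6* from the response in worms on empty vector (EV) bacteria. It was taken as the P-80 effect in *ech-6* RNAi worms minus the P-80 effect in EV worms, both as log2 fold changes of P-80 against vehicle. Members were all genes whose mean over the 16 samples was at least 0 on the log2 scale of CPM (reads of the gene scaled to the reads of the library), which is 1 CPM, and 13910 of the 19750 genes in the table met this rule (70.4%). At its edge, *F42G4.7*, *oac-29* and *C46C2.12* had means of 0.0012, 0.0023 and 0.0024 log2 CPM and interactions of 0.58, 1.16 and 0.09, while *K01G5.11*, *R03H10.7* and *irld-2* lay just below 0 and had interactions of 0.83, 0.35 and -0.39.

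RNA was sequenced from whole worms of the wild-type strain N2 on day 1 of adulthood, from 4 separate pools of about 500 worms in each of 4 groups. The groups were *ech-6* RNAi + P-80, *ech-6* RNAi + vehicle, EV + P-80 and EV + vehicle. Worms of all groups were fed HT115 bacteria from the first larval stage, carrying either the *ech-6* RNAi construct or the empty vector, so the knockdown was by feeding and not by mutation. P-80 was added to the agar and vehicle was the same agar without it. The worms carried no transgene and no mutation, and each pool held all tissues of the worm, its germ line included. Of 16 genes listed for zygotic embryos, 2 met the rule for members.

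P-80 (polysorbate 80) is a water-soluble detergent that carries oleic acid, and it served as the fat diet of the study. ECH-6 is a mitochondrial enoyl-CoA hydratase, which adds water to short unsaturated acyl-CoA molecules in the breakdown of branched-chain amino acids and of propionate. Worms break propionate down either with vitamin B12 or, where B12 is short, through a shunt of acyl-CoA dehydrogenase, hydratase, hydrolase and dehydrogenase steps in which ECH-6 is the hydratase. Fatty acids taken up with food are lengthened by elongases, desaturated, packed into yolk and stored fat, or broken down by beta-oxidation.

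The target was examined first. The *ech-6* level was 5.98, 6.09, 6.18 and 5.93 log2 CPM in *ech-6* RNAi + P-80 worms and 6.09, 6.05, 7.48 and 6.17 log2 CPM in *ech-6* RNAi + vehicle worms. It was 7.72, 7.89, 7.46 and 7.54 log2 CPM in EV + P-80 worms and 7.50, 7.40, 7.36 and 7.36 log2 CPM in EV + vehicle worms. The library labelled *ech-6* RNAi + vehicle replicate 3 thus had *ech-6* within the range of the EV libraries and the other 7 knockdown libraries lay below every EV library. In that library *acdh-2* (5.78 log2 CPM), *hphd-1* (8.30) and *ugt-53* (4.07) lay among the other *ech-6* RNAi + vehicle libraries and above all EV + vehicle libraries, where they ranged from 3.12 to 3.48, from 7.13 to 7.21 and from 2.20 to 2.79 log2 CPM. The interaction of *ech-6* itself was -0.65 ± 0.29 (SE; limma, adjusted p = 0.81) with this library and -0.31 without it. The main values below include it and the values without it are given beside them where they bear on the result.

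**Figure D1:**
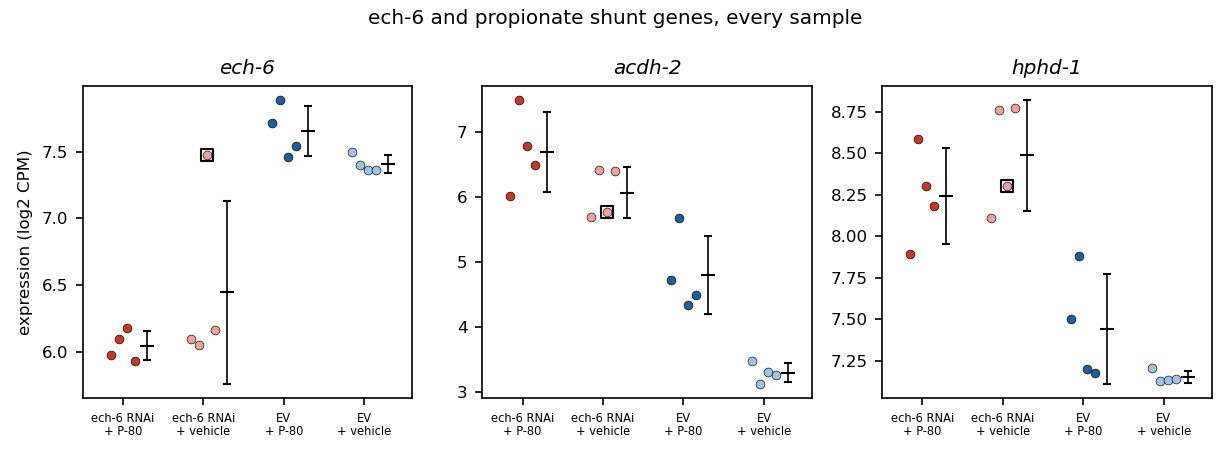
Expression of *ech-6* (III), *acdh-2* (II) and *hphd-1* (II) as log2 CPM in every sample, with the 4 groups along the x axis, points for samples, bars for the mean ± SD of 4 samples and a square around the library labelled *ech-6* RNAi + vehicle replicate 3. That library sits at 7.48 for *ech-6*, beside the EV libraries, and at 5.78 for *acdh-2* and 8.30 for *hphd-1*, beside the other *ech-6* RNAi libraries.

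The libraries held 15306307 to 28129104 reads on genes, and the median SD of a member within a group was 0.13 log2 in *ech-6* RNAi + P-80, 0.12 in *ech-6* RNAi + vehicle, 0.13 in EV + P-80 and 0.11 in EV + vehicle worms. With 4 samples per group the median SE of an interaction was 0.13 and the median half-width of its 95% interval was 0.28 log2. The interval lay within -1 to 1 for 90.4% of the members and within a 1.5-fold difference for 69.2% of them. Larval cuticle genes differed between libraries of the same group. The summed CPM of 18 body shape collagens, which worms make mostly before a molt, was 536, 460, 1099 and 551 in *ech-6* RNAi + P-80 worms and 1424, 1680, 1566 and 1586 in *ech-6* RNAi + vehicle worms, while it was 1105, 1058, 1418 and 459 in EV + P-80 worms and 2860, 1915, 2066 and 2859 in EV + vehicle worms. Replicate 3 of *ech-6* RNAi + P-80 was high, and only this sample was apart from its group (Dixon's test at its 95% critical value). In EV + P-80 worms replicate 4 was low and replicate 3 was the highest. In EV + vehicle worms replicates 1 and 4 lay above replicates 2 and 3. The medians of gene lists are given with the values without single libraries where leaving one out moved them by over 1.5 times.

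No member passed the threshold for the interaction (limma, adjusted p under 0.05, 0 of 13910 or 0%), and the smallest adjusted p over all genes was 0.0511, for *elo-2*. The median interaction over all members was -0.02, and 7608 of them (54.7%) had a negative value. At an unadjusted p under 0.05 there were 552 members with a negative interaction (3.97% of the members) and 316 with a positive one (2.27%), 868 in all or 6.24%. Without the library labelled *ech-6* RNAi + vehicle replicate 3 these numbers were 601 and 350, 713 of the 868 genes were again under 0.05 with the same sign, and *elo-2* passed the threshold (adjusted p = 0.026). With voom weights 1 member passed the threshold. The positive count was 540 without EV + P-80 replicate 3. The differences were small, with a median absolute interaction of 0.10 over the members and 17 members beyond 1 log2 in either direction.

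Most of the members at an unadjusted p under 0.05 had a P-80 effect closer to 0 in *ech-6* RNAi worms, or effects of opposite sign. Of the 552 with a negative interaction, 226 were higher with P-80 in both backgrounds, with a median P-80 effect of 0.14 in *ech-6* RNAi and 0.52 in EV worms. In a further 312 the P-80 effect was below 0 upon knockdown and above 0 in EV worms (median -0.12 and 0.23) and 14 were lower in both. Of the 316 with a positive interaction, 115 were lower with P-80 in both backgrounds (median -0.08 in *ech-6* RNAi and -0.49 in EV worms), 182 were higher in *ech-6* RNAi and lower in EV worms (median 0.13 and -0.22) and 19 were higher in both. Both P-80 effects enter the interaction, so these medians describe the members that the p-value selected.

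To give every gene a direction that treats both backgrounds alike, the mean of its 2 P-80 effects was tested in the same fit. It raised 1741 members (12.5%) and lowered 2189 (15.7%; limma, adjusted p under 0.05), or 2282 and 1876 with every sample centred on its median and 2234 and 1961 after quantile normalization. A P-80 effect is called weaker upon knockdown of *ech-6* where the interaction has the opposite sign. Of the raised members, 1305 (75.0%) had a weaker effect, and the median P-80 effect was 0.20 in *ech-6* RNAi and 0.29 in EV worms, so the knockdown value was 68.1% of the EV value. Of the lowered members, 1549 (70.8%) had a weaker effect, with medians of -0.37 in *ech-6* RNAi and -0.48 in EV worms (77.7%). Among the raised members 215 were weaker and 17 stronger at an unadjusted p under 0.05, and among the lowered members 104 were weaker and 9 stronger. Among the 9980 members that P-80 did not change by this test, 56.7% had a negative interaction and 328 and 195 had an unadjusted p under 0.05 in the negative and the positive direction.

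The share of weaker effects ran in opposite directions with the size of the P-80 effect. Among raised members it was 82.1% for the 39 raised at least 2-fold, 79.1% for the 211 raised by 0.5 to 1 log2 and 74.2% for the 1491 raised by less. Among lowered members it was 64.5% for the 411 lowered at least 2-fold, 68.8% for the 539 lowered by 0.5 to 1 log2 and 73.7% for the 1239 lowered by less. The share also depended on single libraries. Over the 16 fits that left out 1 library, the share of weaker effects ran from 68.6% to 81.3% for raised and from 52.4% to 84.4% for lowered members, with the lowest value of the lowered members without EV + P-80 replicate 4 and the highest without EV + P-80 replicate 3. For the same 2189 lowered members it was 55.6% without *ech-6* RNAi + P-80 replicate 3, a library with larval cuticle genes high for its group. Genes are not replicates, and these shares carry no test.

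**Figure D2:**
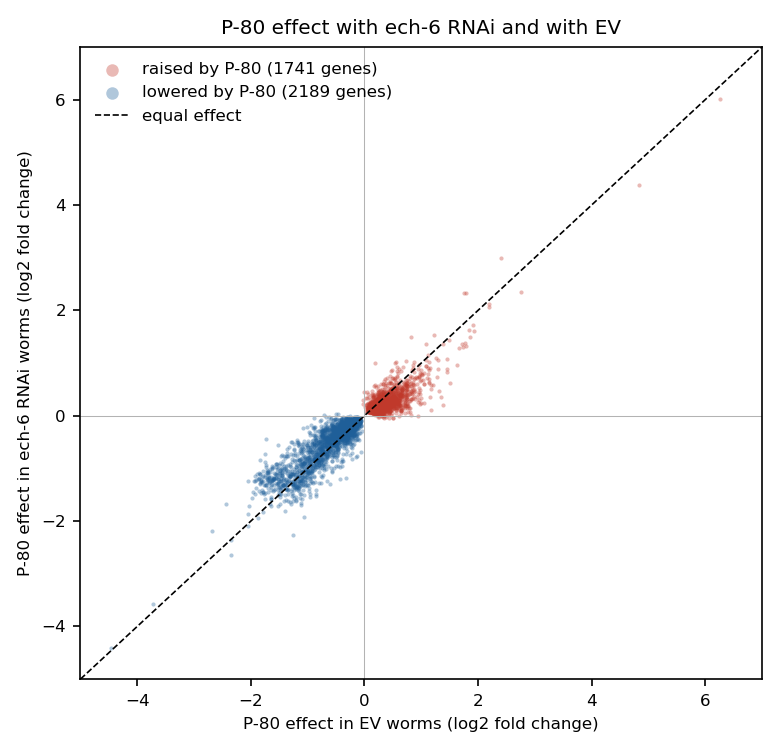
P-80 effect (log2 fold change of P-80 against vehicle) in *ech-6* RNAi worms on the y axis and in EV worms on the x axis, with 1 point for each of the 1741 members that P-80 raised and the 2189 it lowered. Points on the x-axis side of the dashed line of equal effect are weaker upon knockdown of *ech-6*, which holds for 1305 raised and 1549 lowered members.

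The 2 smallest p-values belonged to fatty acid elongases. *elo-2* (WBGene00001240; WBcel235 IV, 17466062 to 17467408, minus strand) encodes an elongase that lengthens palmitic acid. Its level was 6.85, 6.80, 6.90 and 6.90 log2 CPM in *ech-6* RNAi + P-80 and 6.86, 6.78, 6.72 and 6.88 in *ech-6* RNAi + vehicle worms, against 7.29, 7.27, 7.18 and 7.18 in EV + P-80 and 6.70, 6.74, 6.83 and 6.69 in EV + vehicle worms. All 4 EV + P-80 libraries lay above the other 12, which overlapped each other. The P-80 effect was 0.05 in *ech-6* RNAi and 0.49 in EV worms, and the interaction was -0.44 ± 0.07 (SE, 95% interval -0.57 to -0.30; limma, adjusted p = 0.0511). It passed the threshold in 7 of the 25 alternative fits, with 0.0126 as the lowest adjusted p.

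*elo-5* (WBGene00001243; IV, 5374616 to 5377117, minus strand), an elongase needed for branched-chain fatty acids, was also highest in EV + P-80 worms. Its level was 7.11, 7.09, 7.11 and 7.09 log2 CPM in *ech-6* RNAi + P-80 and 7.06, 7.15, 7.09 and 7.15 in *ech-6* RNAi + vehicle worms, against 7.43, 7.42, 7.45 and 7.27 in EV + P-80 and 7.04, 7.06, 7.12 and 6.99 in EV + vehicle worms. Again only the EV + P-80 libraries stood above the others. The P-80 effect was -0.01 in *ech-6* RNAi and 0.34 in EV worms, with an interaction of -0.35 ± 0.06 (SE; limma, adjusted p = 0.156, or 0.0269 without EV + P-80 replicate 4). Among the 10 elongation genes *elo-8*, a further elongase of the family, also had a negative interaction at an unadjusted p under 0.05 (-0.34; P-80 effect -0.0045 in *ech-6* RNAi and 0.33 in EV worms), while the other 7, *elo-1* and *elo-6* among them, ranged from -0.08 to 0.10. The 3 of 10 stand beside 3.97% of all members. The median of the list was -0.02 (-0.06 without EV + vehicle replicate 1 and -0.0050 without *ech-6* RNAi + P-80 replicate 2).

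**Figure D3:**
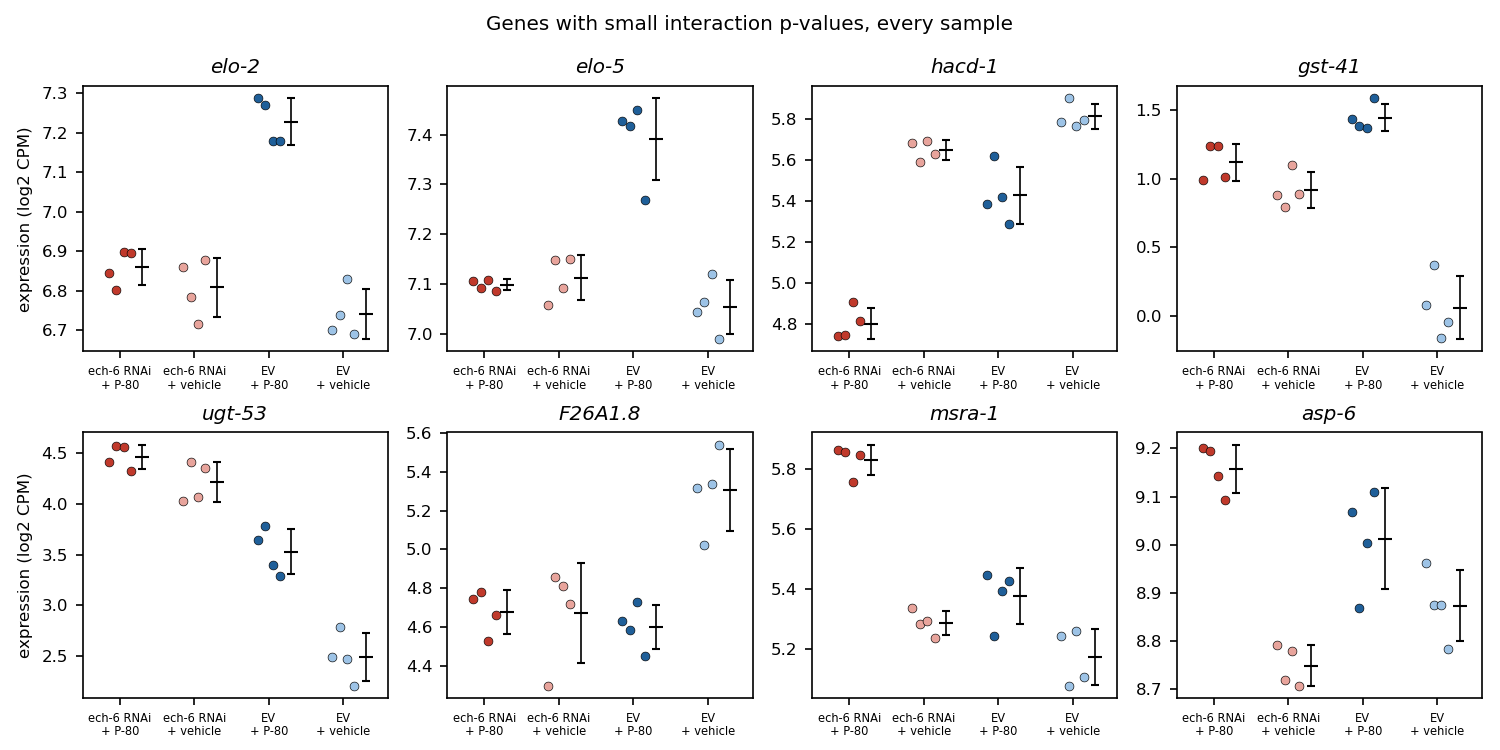
Expression (log2 CPM) of *elo-2*, *elo-5*, *hacd-1*, *gst-41*, *ugt-53*, *F26A1.8*, *msra-1* and *asp-6* in every sample, with the 4 groups along the x axis, points for samples and bars for the mean ± SD of 4 samples. The EV + P-80 samples of *elo-2* (7.18 to 7.29) and *elo-5* (7.27 to 7.45) lie above all other groups, and the *ech-6* RNAi + P-80 samples of *hacd-1* (4.74 to 4.91) lie below them.

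Among genes of beta-oxidation the lean went both ways. *hacd-1* (WBGene00019978; V, 1460369 to 1461613, plus strand), a 3-hydroxyacyl-CoA dehydrogenase, was 4.74, 4.75, 4.91 and 4.81 log2 CPM in *ech-6* RNAi + P-80 and 5.69, 5.59, 5.70 and 5.63 in *ech-6* RNAi + vehicle worms, against 5.39, 5.62, 5.42 and 5.29 in EV + P-80 and 5.79, 5.90, 5.77 and 5.80 in EV + vehicle worms. Its fall with P-80 was larger upon knockdown in these values (-0.85 in *ech-6* RNAi and -0.38 in EV worms; interaction -0.47 ± 0.09 SE, limma adjusted p = 0.265). Of the 42 genes on the list, 5 were negative and 5 positive at an unadjusted p under 0.05 (11.9% each, against 3.97% and 2.27% of all members), and the median was 0.04, or 0.02 without EV + vehicle replicate 1 and 0.07 without EV + vehicle replicate 3. *acdh-2* and *ech-6*, which the list shares with the propionate shunt, were among the negative ones, and *ech-6* is the RNAi target. The enoyl-CoA hydratase gene *ech-7*, which overlaps a microRNA gene on its strand, had a P-80 effect of -0.03 in *ech-6* RNAi and 0.38 in EV worms. The carnitine palmitoyltransferase gene *cpt-1*, whose product lets fatty acids into mitochondria, leaned the other way, with P-80 effects of -0.04 in *ech-6* RNAi and -0.21 in EV worms. *cpt-3* had 0.80 in *ech-6* RNAi and -0.17 in EV worms, and its levels of -0.56 to 0.99 log2 CPM were close to the lower limit of the members.

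Fatty acid synthesis showed opposite signs at its 2 enzymes. *pod-2*, the acetyl-CoA carboxylase, averaged 10.14 log2 CPM in *ech-6* RNAi + P-80 and 10.12 in *ech-6* RNAi + vehicle worms, against 10.11 in EV + P-80 and 9.89 in EV + vehicle worms, an interaction of -0.20 ± 0.05 (SE). *fasn-1*, the fatty acid synthase, had P-80 effects of 0.08 in *ech-6* RNAi and -0.11 in EV worms, an interaction of 0.19 ± 0.06 (SE). Both had a limma adjusted p above the threshold (0.569 and 0.707). None of the 7 desaturases had an unadjusted p under 0.05. *fat-5*, a palmitate desaturase, had the largest P-80 effects of that list, 2.99 in *ech-6* RNAi and 2.40 in EV worms, and *fat-3* had 0.72 and 0.90.

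The interaction was negative for all 8 genes listed for the propionate shunt (median -0.41), as it was for 54.7% of all members, and 3 of them (*acdh-2*, *ech-6* and *hphd-1*) had an unadjusted p under 0.05 (37.5%, against 3.97% of all members). This share counts *ech-6*, which is the RNAi target, so its value is not a response of the list. It was -0.31 without the library labelled *ech-6* RNAi + vehicle replicate 3. *acdh-2* encodes an acyl-CoA dehydrogenase and overlaps *ins-13* on its strand. Its level was 6.02, 7.50, 6.78 and 6.49 log2 CPM in *ech-6* RNAi + P-80 and 5.69, 6.41, 5.78 and 6.41 in *ech-6* RNAi + vehicle worms, against 4.72, 5.68, 4.34 and 4.49 in EV + P-80 and 3.48, 3.12, 3.31 and 3.26 in EV + vehicle worms. The EV groups did not overlap each other, and the *ech-6* RNAi groups did. The P-80 effect was 0.63 in *ech-6* RNAi and 1.51 in EV worms (interaction -0.88 ± 0.39 SE; limma adjusted p = 0.81), and with vehicle *acdh-2* was higher by 2.78 log2 in *ech-6* RNAi than in EV worms. *hphd-1*, the hydroxyacid-oxoacid transhydrogenase of the shunt, was 7.89, 8.59, 8.30 and 8.18 log2 CPM in *ech-6* RNAi + P-80 and 8.11, 8.76, 8.30 and 8.77 in *ech-6* RNAi + vehicle worms, against 7.50, 7.88, 7.20 and 7.18 in EV + P-80 and 7.21, 7.13, 7.14 and 7.14 in EV + vehicle worms. Its P-80 effect was -0.25 in *ech-6* RNAi and 0.29 in EV worms.

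In the same list *acdh-1*, the first enzyme of the shunt, had an interaction of -0.57 (limma adjusted p = 0.87) and *hach-1*, its hydrolase, one of -0.29 (limma adjusted p = 0.845). *alh-8*, which carries out the last step, and the nuclear receptors *nhr-10* and *nhr-68*, which switch the shunt on, lay between -0.09 and -0.06. The median of the list was -0.32 without the library labelled *ech-6* RNAi + vehicle replicate 3 and -0.26 without EV + P-80 replicate 2, in which *acdh-2* (5.68) and *hphd-1* (7.88) were the highest of their group. Of the 12 genes for the breakdown of branched-chain amino acids, 8 were negative, against 54.7% of all members. At an unadjusted p under 0.05, 3 were negative (3.97% of all members were). Beside *ech-6*, the RNAi target, these were *B0250.5*, a 3-hydroxyisobutyrate dehydrogenase (P-80 effect 0.20 in *ech-6* RNAi and 0.41 in EV worms), and *ivd-1*, the isovaleryl-CoA dehydrogenase (0.02 and 0.19). The 6 genes of the vitamin B12-dependent route had a median of 0.03 (0.0017 without EV + vehicle replicate 2 and 0.06 without *ech-6* RNAi + vehicle replicate 1) and none was under 0.05.

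The detoxification genes with the clearest values were UDP-glycosyltransferases, enzymes that attach sugars to small hydrophobic molecules. Of 56 members, 38 had a negative interaction, against 54.7% of all members. At an unadjusted p under 0.05, 10 were negative (17.9%, against 3.97% of all members) and 2 positive (3.57%, against 2.27%). *ugt-53* (WBGene00020182; V, 2849343 to 2852028, plus strand) was 4.41, 4.57, 4.56 and 4.32 log2 CPM in *ech-6* RNAi + P-80 and 4.03, 4.42, 4.07 and 4.35 in *ech-6* RNAi + vehicle worms, against 3.64, 3.78, 3.40 and 3.29 in EV + P-80 and 2.49, 2.79, 2.47 and 2.20 in EV + vehicle worms. Its P-80 effect was 0.25 in *ech-6* RNAi and 1.04 in EV worms, with an interaction of -0.79 ± 0.18 (SE; limma adjusted p = 0.569). *ugt-29* had P-80 effects of 0.07 in *ech-6* RNAi and 0.80 in EV worms.

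With vehicle, both of these genes were higher in *ech-6* RNAi than in EV worms, *ugt-53* by 1.73 and *ugt-29* by 1.37 log2. The same vehicle libraries enter the interaction with the opposite sign, here and for *acdh-2* above. A higher vehicle value and a negative interaction are therefore not separate results. P-80 raised 15 UDP-glycosyltransferases, and 14 of them had a weaker effect upon knockdown, as had 75.0% of all raised members, with medians of 0.33 in *ech-6* RNAi and 0.75 in EV worms. Their summed CPM was 611, 769, 597 and 609 in *ech-6* RNAi + P-80 and 479, 591, 498 and 542 in *ech-6* RNAi + vehicle worms, against 527, 462, 448 and 497 in EV + P-80 and 294, 321, 335 and 302 in EV + vehicle worms. P-80 libraries were the higher ones in both backgrounds. The median interaction of the 15 was -0.23 and ran from -0.33 to -0.19 over the fits that left out 1 library. The exception among the 15 was *ugt-32* (0.96 in *ech-6* RNAi and 0.95 in EV worms).

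*gst-41*, a glutathione S-transferase gene (WBGene00001789; V, 7398396 to 7399302, minus strand), had 1 of the lowest interactions. Its level was 0.994, 1.236, 1.237 and 1.014 log2 CPM in *ech-6* RNAi + P-80 and 0.885, 0.794, 1.099 and 0.891 in *ech-6* RNAi + vehicle worms, against 1.436, 1.388, 1.368 and 1.589 in EV + P-80 and 0.077, 0.373, -0.164 and -0.048 in EV + vehicle worms. The EV groups were far apart and the *ech-6* RNAi groups overlapped, with P-80 effects of 0.20 in *ech-6* RNAi and 1.39 in EV worms (interaction -1.18 ± 0.23 SE; limma adjusted p = 0.265). It stood alone in its family, since of 30 glutathione S-transferases 13 were negative, with *gst-41* and the positive *gst-22* (0.46) as the members under 0.05. Of 46 cytochromes P450, 3 were negative (6.52%, against 3.97% of all members) and 1 positive at that level, among them *cyp-25A3* with 0.27 in *ech-6* RNAi and 0.63 in EV worms and *cyp-35A5* with -1.92 and -1.06.

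Cuticle collagens, the structural proteins that the skin secretes, split by the direction of the P-80 effect. Of 115 collagens with col names, 82 had a negative interaction, against 54.7% of all members. At an unadjusted p under 0.05, 25 were negative (21.7%, against 3.97% of all members) and none was positive. P-80 raised 31 of them, and all 31 had a weaker effect upon knockdown, 20 at an unadjusted p under 0.05, where 75.0% of all raised members had a weaker effect and 215 of 1741 had one at that level. The median P-80 effect of these 31 was 0.29 in *ech-6* RNAi and 0.61 in EV worms and the median interaction was -0.31. All 31 were negative in each of the 16 fits that left out 1 library, where the median ran from -0.37 to -0.24, and it was -0.32 without the library labelled *ech-6* RNAi + vehicle replicate 3. Collagen genes are alike in sequence, so reads of single members are uncertain where the counting could split them.

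The summed CPM of the 31 raised collagens was 32135, 29681, 29684 and 31585 in *ech-6* RNAi + P-80 and 28720, 24194, 24306 and 23428 in *ech-6* RNAi + vehicle worms, against 28374, 28284, 25708 and 33181 in EV + P-80 and 17591, 20830, 21356 and 16847 in EV + vehicle worms. The EV + vehicle worms were the low group, and the knockdown worms with vehicle lay above them and below their own P-80 group, with replicate 1 within the range of EV + P-80 worms. EV + vehicle replicates 1 and 4, which had the higher body shape collagens, had the lower sums here. EV + P-80 replicate 4, the lowest of its group there, was the highest here. In *ech-6* RNAi + P-80 worms the sums did not run in opposite order. The part of the larval cuticle differences in these values was not tested. With vehicle the median of the 31 was higher by 0.43 log2 in *ech-6* RNAi than in EV worms, a difference that also enters the interaction with the opposite sign. P-80 acted most on *col-143* (0.96 in *ech-6* RNAi and 1.62 in EV worms), and *col-7* had 0.03 and 0.38.

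**Figure D4:**
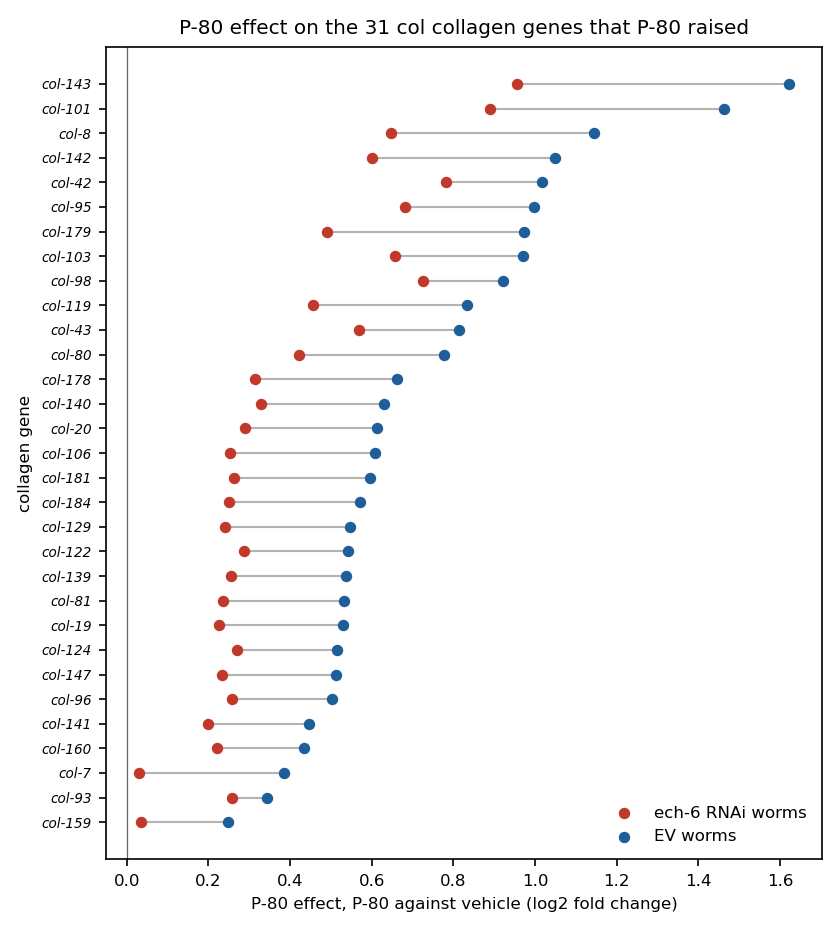
P-80 effect (log2 fold change of P-80 against vehicle, x axis) on each of the 31 col collagen genes that P-80 raised, in *ech-6* RNAi worms and in EV worms, sorted by the EV value. The *ech-6* RNAi point lies below the EV point for all 31 genes, with medians of 0.29 and 0.61.

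The 67 col collagens that P-80 lowered had no such lean. Of these, 39 had a negative interaction, none was under an unadjusted p of 0.05, and the median of -0.06 ran from -0.26 without EV + P-80 replicate 4 to 0.13 without EV + P-80 replicate 3. The list of 115 as a whole had a median of -0.12, which was 0.06 without EV + P-80 replicate 3, -0.25 without *ech-6* RNAi + P-80 replicate 3 and -0.23 without EV + P-80 replicate 4. The 18 body shape collagens (dpy, sqt, rol, bli and lon genes) had a median of 0.19, and none had an unadjusted p under 0.05. That median was -0.21 without EV + P-80 replicate 4, -0.05 without *ech-6* RNAi + P-80 replicate 3 and 0.39 without EV + P-80 replicate 3. P-80 lowered 17 of them, with medians over the list of -1.289 in *ech-6* RNAi and -1.502 in EV worms. The 18 patched-related genes that P-80 lowered included 16 with a weaker effect, against 70.8% of all lowered members (median interaction 0.11), and that median was -0.0048 without EV + P-80 replicate 4. The larval cuticle sums given above moved with these values, and their part in them was not tested.

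Yolk and egg genes leaned toward a weaker P-80 effect. The vitellogenins, which carry lipid to the oocytes, were all negative (6 of 6, against 54.7% of all members, median -0.22), none under an unadjusted p of 0.05. P-80 raised all 6, and of all raised members 75.0% had a weaker effect. Their summed CPM was 18004, 13357, 14381 and 15600 in *ech-6* RNAi + P-80 and 12994, 8809, 9615 and 8270 in *ech-6* RNAi + vehicle worms, against 16537, 13750, 13348 and 18566 in EV + P-80 and 8654, 9980, 9148 and 7065 in EV + vehicle worms. P-80 libraries were above the vehicle libraries in both backgrounds. The median was -0.05 without *ech-6* RNAi + vehicle replicate 1, the highest of its group, and -0.12 without EV + P-80 replicate 4. P-80 effects ranged from 0.49 to 0.87 in *ech-6* RNAi and from 0.66 to 1.14 in EV worms, with *vit-2* the lowest and *vit-1* the highest in both.

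Of 24 genes of oocytes and the eggshell, 23 were negative, against 54.7% of all members, and none was under an unadjusted p of 0.05. Their median was -0.15, or -0.10 without EV + P-80 replicate 4. In RNA from whole worms, fewer cells of a type and less RNA per cell cannot be told apart. P-80 raised 18 of these genes, and all 18 had a weaker effect upon knockdown (75.0% of all raised members had one) and kept it in each of the 16 fits that left out 1 library. Their medians were 0.16 in *ech-6* RNAi and 0.33 in EV worms, for example 0.10 and 0.27 for *rme-2*, the yolk receptor, and 0.18 and 0.31 for *cpg-1*, an eggshell proteoglycan. Their summed CPM was 4301, 4578, 3845 and 4320 in *ech-6* RNAi + P-80 and 4362, 3497, 3772 and 3704 in *ech-6* RNAi + vehicle worms, against 3567, 4081, 3465 and 4528 in EV + P-80 and 2895, 3560, 3272 and 2918 in EV + vehicle worms. The groups overlapped in each background. In this sum and in that of the vitellogenins, EV + P-80 replicate 4 was the highest of its group. EV + vehicle replicates 1 and 4 were the lower ones of theirs. In the body shape collagens these libraries stood the other way. The *ech-6* RNAi groups did not all follow this order, and the part of the larval cuticle differences was not tested.

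Of 81 sperm genes, 57 were negative (median -0.06), against 54.7% of all members. At an unadjusted p under 0.05, 4 were negative, a share of 4.94% that is near the 3.97% of all members. The median was -0.0021 without EV + P-80 replicate 4, -0.03 without *ech-6* RNAi + P-80 replicate 3 and -0.11 without EV + vehicle replicate 2. *msp-71*, annotated as a pseudogene of the major sperm proteins and uncertain because of its near-identical copies, had P-80 effects of -0.0028 in *ech-6* RNAi and 0.60 in EV worms. Of 30 genes of germ line proliferation and meiosis, 25 were negative, against 54.7% of all members. Their median was -0.06, or -0.02 without *ech-6* RNAi + vehicle replicate 1 and -0.09 without *ech-6* RNAi + vehicle replicate 2. No gene of these 3 lists or of the intestine and muscle lists was at 0 in any group. Transthyretin-like genes, a family of secreted proteins that is large in nematodes, had 36 of 50 negative (54.7% of all members were), with 4 at an unadjusted p under 0.05 (8.0%, against 3.97% of all members), among them *ttr-15* with P-80 effects of 0.19 in *ech-6* RNAi and 0.43 in EV worms and *ttr-42* with 0.15 and 0.78.

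Lysosomal proteases were among the lists with positive medians. Of 13 aspartyl proteases 2 had a negative interaction, against 54.7% of all members, and the median was 0.15, or 0.10 without EV + P-80 replicate 2. The positive *asp-5*, *asp-6* and *asp-8* were under an unadjusted p of 0.05 (23.1%, against 2.27% of all members). *asp-6* (WBGene00000219; V, 8267511 to 8268937, minus strand) was 9.201, 9.194, 9.142 and 9.093 log2 CPM in *ech-6* RNAi + P-80 and 8.791, 8.719, 8.779 and 8.707 in *ech-6* RNAi + vehicle worms, against 9.068, 8.869, 9.003 and 9.109 in EV + P-80 and 8.962, 8.875, 8.875 and 8.782 in EV + vehicle worms. The *ech-6* RNAi groups did not overlap and the EV groups did, with P-80 effects of 0.41 in *ech-6* RNAi and 0.14 in EV worms (interaction 0.27 ± 0.07 SE; limma adjusted p = 0.569). P-80 raised 5 of the 13, and none of the 5 had a weaker effect upon knockdown, against 75.0% of all raised members. Of 9 cysteine cathepsins 8 were positive, against 6302 of all 13910 members. Their median of 0.11 was 0.03 without *ech-6* RNAi + P-80 replicate 1 and 0.17 without *ech-6* RNAi + P-80 replicate 2.

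The lysosomal-type lipases, which release fatty acids from stored fat, did not share a sign. Their median of 0.20 was 0.10 without EV + P-80 replicate 4. It was -0.21 in the lowest of the alternatives that kept all libraries. *lipl-3* and *lipl-4* were too low for the fit on genes of at least 2 log2 CPM. *lipl-4* was 0.17, 0.19, 0.88 and -0.02 log2 CPM in *ech-6* RNAi + P-80 and -1.09, -0.53, -0.63 and -0.55 in *ech-6* RNAi + vehicle worms, against 0.68, -0.23, 0.56 and 0.54 in EV + P-80 and 0.08, 0.26, 0.80 and 0.47 in EV + vehicle worms. The knockdown worms with vehicle were the low group, and the other groups overlapped. Its P-80 effect was 1.01 in *ech-6* RNAi and -0.01 in EV worms (interaction 1.02 ± 0.37 SE; limma adjusted p = 0.764), at levels close to the lower limit of the members. *lipl-1* had 1.36 in *ech-6* RNAi and 1.73 in EV worms, *lipl-3* 0.88 and 0.48, *lipl-5* -2.64 and -2.34, and *lipl-7* 0.45 and 0.25. The sphingomyelinase genes *asm-2* (1.08 and 1.45) and *asm-3* (1.497 and 1.859) had lower P-80 effects in *ech-6* RNAi than in EV worms, with interactions of -0.37 ± 0.17 and -0.36 ± 0.26 (SE).

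For *lipl-3*, *lipl-7* and *asm-3*, and for the genes the study named that follow, the intervals of the interaction included 0. The acid ceramidase gene *asah-1* had P-80 effects of 0.90 in *ech-6* RNAi and 0.95 in EV worms (interaction -0.05, 95% interval -0.37 to 0.26), and the cathepsin B genes *cpr-1*, *cpr-4* and *cpr-5* had interactions of 0.21, 0.18 and -0.07, with limma adjusted p-values of 0.916, 0.93 and 0.945. Leaving out 1 library gave 0.0031 to 0.35 for *cpr-1* and 0.0063 to 0.32 for *cpr-4*. For *T05G5.5*, a dephospho-CoA kinase, and the vesicle traffic genes *vps-53* and *gcc-2* which lie beside *ech-6*, the interaction was 0.0015, -0.0027 and -0.07, with 95% intervals of -0.27 to 0.27, -0.21 to 0.20 and -0.23 to 0.10. The sign of *asah-1*, *T05G5.5* and *vps-53* turned in some alternatives.

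Histone genes that P-80 lowered had a weaker effect upon knockdown throughout. Of 52 histone genes, 37 had a positive interaction, against 6302 of all 13910 members. At an unadjusted p under 0.05, 4 were positive (*hil-2*, *his-3*, *his-4* and *his-6*), or 7.69% against 2.27% of all members. The negative *hil-1* and *his-70* were also under 0.05. The median of the list was 0.09, or 0.03 without *ech-6* RNAi + vehicle replicate 2. P-80 lowered 13, all 13 with a weaker effect (70.8% of all lowered members had one), and medians of -0.22 in *ech-6* RNAi and -0.51 in EV worms. Their summed CPM was 182, 175, 208 and 183 in *ech-6* RNAi + P-80 and 205, 202, 223 and 212 in *ech-6* RNAi + vehicle worms, against 202, 201, 248 and 194 in EV + P-80 and 327, 264, 297 and 304 in EV + vehicle worms. The EV + vehicle group lay above all others. All 13 stayed positive in the 16 fits that left out 1 library, and their median ran from 0.30 to 0.43. Many histone genes are near-identical copies, so reads of single members are uncertain.

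All 12 intestine markers were positive, with a median of 0.07. Of all 13910 members 6302 were positive, which also stands beside the counts of the next lists. Without the library labelled *ech-6* RNAi + vehicle replicate 3, 2 of them were negative and the median was 0.12, and it was 0.15 without EV + P-80 replicate 3 and 0.11 without *ech-6* RNAi + P-80 replicate 3. Those under an unadjusted p of 0.05 were *clec-63* (P-80 effect 0.04 in *ech-6* RNAi and -0.27 in EV worms) and *gem-4* (-0.17 and -0.59). They are 16.7% of the list, against 2.27% of all members that were positive at that level. Their summed CPM was 2087 to 2232 in *ech-6* RNAi + P-80 and 1961 to 2003 in *ech-6* RNAi + vehicle worms, against 2010 to 2374 in EV + P-80 and 2115 to 2157 in EV + vehicle worms. Of 25 muscle genes 21 were positive (median 0.05, or 0.09 without *ech-6* RNAi + P-80 replicate 2), with *myo-3*, a body wall myosin, at 0.12 in *ech-6* RNAi and -0.01 in EV worms. Of 18 genes of the unfolded protein response of the endoplasmic reticulum 15 were positive (median 0.06, or 0.03 without *ech-6* RNAi + P-80 replicate 3 or without EV + P-80 replicate 4), none under an unadjusted p of 0.05. Of 79 cytosolic ribosomal proteins 57 were positive, with a median of 0.03. That median was 0.0046 without EV + P-80 replicate 2 and 0.05 without *ech-6* RNAi + vehicle replicate 1. At an unadjusted p under 0.05, 4 of the 79 were positive (5.06%, against 2.27% of all members) and 2 negative (2.53%, against 3.97%). *rpl-41.2* was among the negative ones (P-80 effect -0.0013 in *ech-6* RNAi and 0.30 in EV worms).

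Among single genes outside these lists, *F26A1.8* (WBGene00017806; III, 4820650 to 4822240, minus strand) had the smallest p of the positive members. It was 4.75, 4.78, 4.53 and 4.66 log2 CPM in *ech-6* RNAi + P-80 and 4.30, 4.86, 4.81 and 4.72 in *ech-6* RNAi + vehicle worms, against 4.63, 4.58, 4.73 and 4.45 in EV + P-80 and 5.32, 5.02, 5.34 and 5.54 in EV + vehicle worms. The EV + vehicle worms were the high group, with P-80 effects of 0.01 in *ech-6* RNAi and -0.70 in EV worms (interaction 0.71 ± 0.16 SE; limma adjusted p = 0.569). *msra-1*, a methionine sulfoxide reductase that repairs oxidized proteins, was 5.86, 5.86, 5.76 and 5.85 log2 CPM in *ech-6* RNAi + P-80 and 5.34, 5.28, 5.29 and 5.24 in *ech-6* RNAi + vehicle worms, against 5.45, 5.24, 5.39 and 5.43 in EV + P-80 and 5.24, 5.08, 5.26 and 5.11 in EV + vehicle worms. Here the *ech-6* RNAi + P-80 worms were the high group, and the P-80 effect was 0.55 in *ech-6* RNAi and 0.21 in EV worms.

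The remaining members with the smallest p-values were negative. *R144.15*, a noncoding RNA gene that overlaps *R144.16* on its strand and is uncertain for that reason, had P-80 effects of -0.37 in *ech-6* RNAi and 0.32 in EV worms. *F25E5.8* had -0.05 and 0.43, the cystatin gene *C39B5.5* 0.15 and 0.46, the oxidoreductase gene *ZK1290.5* -0.23 and 0.26, and the nuclear receptor gene *nhr-203* -0.36 and 0.20. By size, among members with an unadjusted p under 0.01, the 5 lowest interactions were those of *F56A4.2* (-2.14), *gst-41* (-1.18), *C43F9.5* (-1.07), *F27E5.9* (-1.07) and *F43A11.8* (-0.97), and the 5 highest those of *Y37H2A.14* (1.30), *zig-3* (1.27), *oac-29* (1.16), *B0205.13* (0.82) and *let-653* (0.76). The genes *elo-5*, *C43F9.5*, *hil-2*, *lipl-3*, *myo-3* and *nduo-6* also overlap another annotated gene on their strand, so their reads are uncertain where the counting could split them. The value of *F56A4.2*, a C-type lectin gene, came with a wide spread, since it was 2.71, 4.22, 4.81 and 5.62 log2 CPM in *ech-6* RNAi + vehicle worms.

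Further metabolic genes had values past an unadjusted p of 0.05 in lists whose medians lay near 0. *sams-1*, an S-adenosylmethionine synthase for phosphatidylcholine synthesis, had P-80 effects of 0.34 in *ech-6* RNAi and 0.02 in EV worms, while *pmt-1*, a methyltransferase of the same synthesis, had 0.12 and 0.25. The catalase gene *ctl-1* had 0.04 in *ech-6* RNAi and -0.49 in EV worms, the mitochondrial chaperone gene *hsp-6* -0.04 and -0.17, and the isocitrate dehydrogenase gene *idh-1* 0.24 and 0.42. The acyl-CoA synthetase genes *acs-7* (-0.07 and -0.59) and *acs-2* (0.03 and -0.24) had positive interactions. The proton pump that acidifies lysosomes (vacuolar ATPase, 21 genes) had a median of -0.01 with none at an unadjusted p under 0.05, and the 39 nuclear genes of the respiratory chain had a median of 0.01 with none, and both medians changed sign without single libraries. The 11 respiratory chain genes of mitochondrial DNA had a median of -0.15, which was -0.08 without EV + P-80 replicate 3, with *nduo-6* at -0.31.

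**Figure D5:**
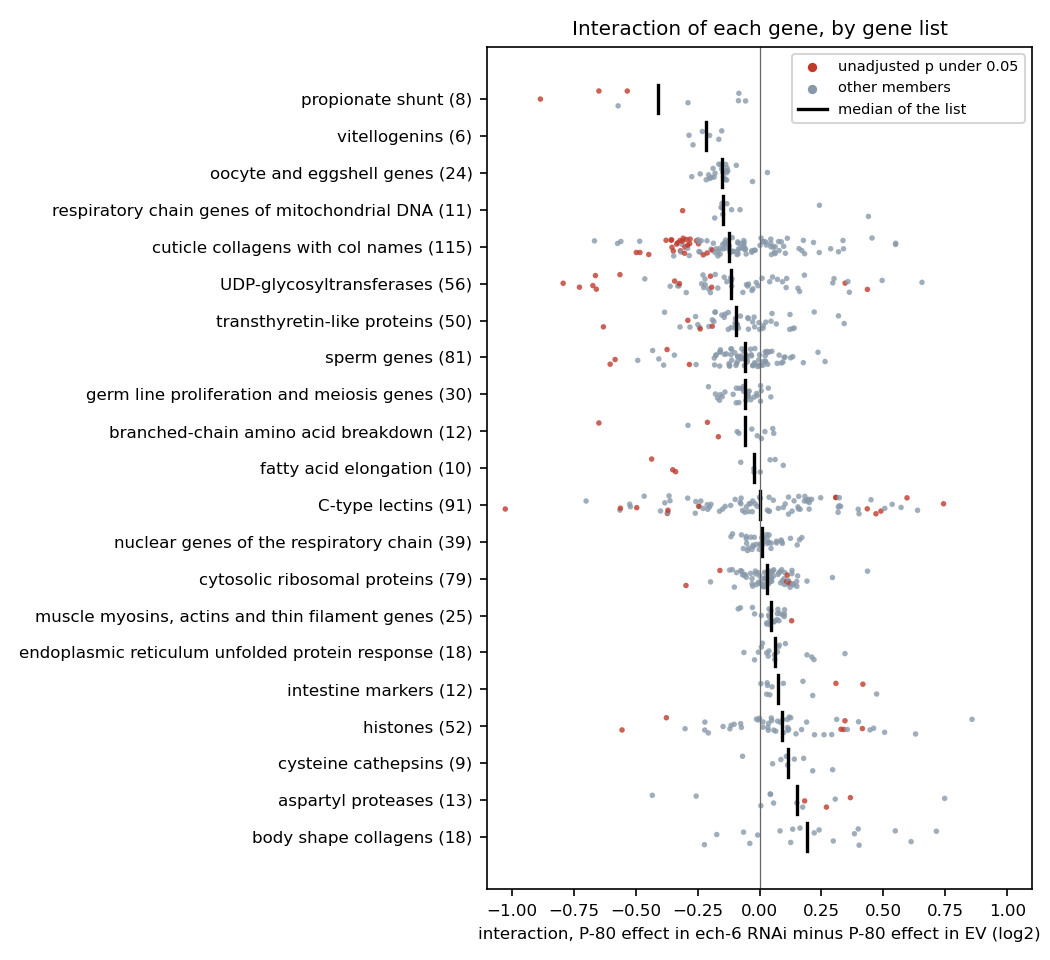
Interaction of each member (x axis, log2, P-80 effect in *ech-6* RNAi minus P-80 effect in EV) for 21 gene lists, sorted by median, with black bars for the median of the list and red points for an unadjusted p under 0.05. Among the lists drawn the medians run from -0.41 for the propionate shunt to 0.19 for the body shape collagens, whose sign depended on single libraries.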

How the data were processed

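Whole worms of 4 groups with 4 separate pools each were compared (groups taken from the RNAi and diet labels). The authors checked reads with FastQC, trimmed them (Trimmomatic 0.32), used HISAT2 2.0.4 for alignment to WBcel235 with Ensembl release 91, counted by strand with HTSeq 0.6.1, then kept genes with over 2 counts in at least 4 samples. The deposited values are log2 CPM, which the authors made after TMM scaling, although the header of the table says CPM. Read counts were computed back from them (100% of values whole), giving 15306307 to 28129104 reads per sample. This depth gives a median SE of 0.13 for an interaction.

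The values of all 19750 genes and 16 samples entered 1 limma fit (version 3.58.1, R 4.3.3) with a mean for each group and eBayes moderation that follows the mean level, with two-sided tests and Benjamini-Hochberg adjustment over all genes at 0.05. Voom weights on the recovered reads were an alternative. Gene lists were described by counts and medians, without a test. The genes named were *ech-6*, the 12 members with the smallest interaction p, the 5 highest and 5 lowest interactions at an unadjusted p under 0.01, up to 2 per list and direction at an unadjusted p under 0.05, and genes the study names. Other genes named were chosen after their values were seen. The members and lists were chosen with earlier results of these data known, and the raised or lowered part of a list was taken after its values were seen. Coordinates are from the WBcel235 annotation of Ensembl release 115. Figures were drawn with matplotlib 3.10.9.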

Additional observations from a re-analysis of the deposited data

Results flagged for a closer look

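A sample far from the other 3 of its group was found in 30 of the 504 groups of values examined (5.95%; Dixon's test at its 95% critical value), where chance gives about 1 in 20. The value of interest for the labels was *ech-6* in *ech-6* RNAi + vehicle replicate 3, at 7.48 log2 CPM with the others of the group between 6.05 and 6.17.

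In 4 sums over genes the sample apart was *ech-6* RNAi + P-80 replicate 3, each time the highest of its group. It had a summed CPM of 1099 for the body shape collagens (others 460 to 551), 670 for the patched-related genes that P-80 lowered (others 493 to 501), 2954 for the unc genes that P-80 lowered (others 2564 to 2625) and 4448 for the genes of the unfolded protein response that P-80 lowered (others 3933 to 4014). EV + P-80 replicate 3 had 248 for the histones that P-80 lowered (others 194 to 202). The col collagens that P-80 raised summed to 28720 in *ech-6* RNAi + vehicle replicate 1 (others 23428 to 24306), and the UDP-glycosyltransferases that P-80 raised to 769 in *ech-6* RNAi + P-80 replicate 2 (others 597 to 611).

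Among single genes, all in log2 CPM, the samples apart in *ech-6* RNAi + P-80 were replicate 3 of *msra-1* (5.76), replicate 4 of *clec-97* (2.99), *F43A11.8* (1.69) and *cdf-2* (2.98), replicate 1 of *col-62* (8.09) and *abf-5* (2.65), and replicate 2 of *B0250.5* (6.77). In *ech-6* RNAi + vehicle there was replicate 1 of *cpr-4* (6.99). In EV + P-80 there were replicate 4 of *Y37H2A.14* (0.69), *cnc-3* (-0.036) and *nhr-168* (0.43), and replicate 2 of *lipl-4* (-0.23), *idha-1* (7.51) and *cpr-1* (5.74). In EV + vehicle there were replicate 4 of *clec-66* (4.40), *B0205.13* (2.84), *acs-7* (4.54) and *cpr-5* (7.84), replicate 1 of *Y37H2A.14* (1.07) and *hphd-1* (7.21), replicate 2 of *clec-199* (0.82) and replicate 3 of *idha-1* (7.53).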

How the results depend on the processing

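Of the interaction, 1 gene passed the threshold with robust eBayes, with voom weights and where only genes with a mean of at least 0 or at least 2 log2 CPM were fitted, against 0 in the fit reported, and 0 to 2 passed in the fits that left out 1 library. These were *elo-2* (lowest adjusted p 0.0126) and *elo-5* (0.0269). Leaving out 1 library gave 418 to 741 negative and 231 to 540 positive members at an unadjusted p under 0.05, and 1421 to 1916 members raised and 1910 to 2368 lowered by P-80. The share of weaker effects then ran from 68.6% to 81.3% for raised and from 52.4% to 84.4% for lowered members. For raised members it was 71.8% with sample weights and 71.0% with centred samples, and for lowered members 68.7% with voom weights, 58.2% with sample weights and 74.1% after quantile normalization. Centring gave 2282 members raised and 1876 lowered, against 1741 and 2189. With the replicate number as a block 0 genes passed, 587 and 345 members were negative and positive at an unadjusted p under 0.05, and the shares were 74.4% and 70.5%. The labels do not say whether the replicate numbers pair the samples. Correlations of same-numbered samples ran from -0.29 to 0.49, with 6 of 24 above 0.1, and 5 of 16 samples correlated best with their own number. The highest, 0.49, was between replicate 3 of *ech-6* RNAi + P-80 and replicate 3 of EV + P-80. A batch shared by these libraries was not tested.

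Of 2806 comparisons of 113 named genes with an alternative, 2776 kept direction and side of the threshold, 8 passed it and 22 turned direction, in *asah-1* (-0.14 to 0.047 leaving out 1 library), *T05G5.5* (-0.047 to 0.10) and *vps-53* (-0.085 to 0.046, and 0.0018 with voom weights, 0.017 with sample weights, 0.012 after quantile normalization and 0.0079 with centred samples). The cause was not tested. Of 62 list medians, 30 kept their sign in every alternative and 32 did not. In 1603 of 1638 comparisons a median moved by less than the replicate spread. Several alternatives change only the p-values, and leaving out 1 library moves a group mean by only part of its deviation. Most of these comparisons could hardly come out otherwise, so their count does not measure stability. The median SE of 0.31 at 0 to 2 log2 CPM, against 0.07 at 6 to 8, limits what can be seen in low members.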

Other observations

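Outside the lists, gene classes were formed by the letters of the gene name, which gave 110 classes of at least 10 members with 2770 members in all. Among them fipr genes, named for fungus-induced peptides, had 12 of 14 negative interactions with 4 at an unadjusted p under 0.05 (28.6%, against 3.97% of all members), a median of -0.22, and medians of the P-80 effect of 0.24 in *ech-6* RNAi and 0.52 in EV worms. P-80 raised 12 of them, 10 with a weaker effect upon knockdown, where 75.0% of all raised members had one. These classes were picked from the 110 after their values were seen. The nspc class of nematode-specific peptides had 13 of 14 negative (median -0.26) and the nspb class 9 of 11 (median -0.13), against 54.7% of all members. At an unadjusted p under 0.05, 1 nspc gene (7.14%) and 2 nspb genes (18.2%) were negative, against 3.97% of all members. On the positive side, the unc class, which holds many genes of neurons and muscle, had 66 of 87 positive values (median 0.06), against 6302 of all 13910 members. At an unadjusted p under 0.05, 2 unc genes were positive, a share of 2.30% that is near the 2.27% of all members. P-80 lowered 30 unc genes, 26 with a weaker effect (70.8% of all lowered members had one). The mig class of cell migration genes had 3 of 15 positive at an unadjusted p under 0.05 (2.27% of all members were, median 0.12).

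By chromosome, the 1852 members on X had a median interaction of 0.03, with medians of the P-80 effect of -0.04 in *ech-6* RNAi and -0.08 in EV worms, while the medians of the 5 autosomes ran from -0.03 to -0.01. Of 31 small nucleolar RNA genes 5 were negative at an unadjusted p under 0.05 (median -0.27), and of 85 genes annotated as ncRNA 12 were negative and 1 was positive, where 3.97% of all members were negative and 2.27% positive at that level.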
